A study of Mus musculus with 6 samples.

Results

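Genes that carry cells through mitosis were measured in the lungs of WT and *Tnrc6a* null mouse embryos at E18.5. The list holds 58 genes of the mitotic kinases, the spindle checkpoint, the kinetochore, the spindle and chromosome condensation, taken by symbol. Of these, 57 had a probe set annotated to a single gene symbol, among 19938 genes measured in all, and the probe set with the highest mean over the 6 lungs stood for each gene. *Ccnb1* had no such probe set and has no value here. In *Tnrc6a* null lungs 55 of the 57 genes were higher on average than in WT, by a median of 0.24 on the deposited log scale, and none passed the adjusted threshold. WT replicate 1 and null replicate 3 stood high for most of the list, and WT replicates 2 and 3 stood low. The range of the 3 WT lungs was wider than the difference of genotype means for 53 of the 57 genes (93.0%), against 83.6% of all genes.

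*Tnrc6a* (GW182) encodes a scaffold protein that binds Argonaute and takes part in silencing of mRNAs by microRNAs. The 3 WT and 3 *Tnrc6a* null samples are each the whole lung of an individual embryo, all of strain background C57Bl/6. The null embryos carried GW182gt/gt, a gene trap insertion of β-galactosidase on both *Tnrc6a* alleles, on a line backcrossed to C57BL/6, and the WT embryos were littermates with neither allele trapped. The trapped allele is carried in every cell of the embryo. Total RNA was hybridised to Affymetrix mouse whole-transcript gene arrays, with 1 array for each lung. Values are processed signals on a log scale whose base is labelled as 2 but was not settled, so a change is stated as a difference (null mean minus WT mean) with no fold. Signals of different probe sets do not rank the genes by abundance.

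Entry into mitosis is driven by the kinase CDK1 with its B-type cyclins, which are made in G2 and destroyed at anaphase by the anaphase-promoting complex. Kinetochores assemble on CENP-A chromatin and hold microtubules through the NDC80 complex, while the checkpoint proteins delay anaphase until every chromosome is attached. Many of these genes share a promoter layout, with CCAAT boxes bound by NF-Y and a cell cycle genes homology region (CHR) through which MuvB complexes, as DREAM in resting cells and with B-MYB and FOXM1 in dividing ones, hold transcription back or raise it in G2 and mitosis. In the lung near birth, dividing cells are found in epithelium, mesenchyme and endothelium. In an array of whole tissue, a change in the number of dividing cells and a change in RNA per dividing cell cannot be told apart.

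The shared promoter layout can be read in the windows from 250 bases before to 50 bases after the gene start (RefSeq, build GRCm38.p6). The windows of *Cdk1* and *Ccnb2*, which form the mitotic kinase, and of *Plk1* and *Cdc20*, which act at mitotic entry and at anaphase, are shown because they are textbook targets of this control and stand for the regulators of the list. They lie at chr10:69352863-69353162 (minus strand), chr9:70421505-70421804 (minus strand), chr7:122159185-122159484 (plus strand) and chr4:118437294-118437593 (minus strand). Each is written 5′ to 3′ on the strand of the gene, and capitals mark matches on either strand to CCAAT (read as ATTGG on the other strand) and to the CHR forms TTTGAA and TTTAAA, the second of which reads the same on both strands.
Cdk1: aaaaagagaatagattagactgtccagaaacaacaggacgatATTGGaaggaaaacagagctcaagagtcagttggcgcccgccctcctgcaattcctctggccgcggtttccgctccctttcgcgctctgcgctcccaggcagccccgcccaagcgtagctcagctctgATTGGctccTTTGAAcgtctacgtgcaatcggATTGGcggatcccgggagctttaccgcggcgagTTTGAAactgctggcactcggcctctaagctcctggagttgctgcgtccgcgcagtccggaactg
Ccnb2: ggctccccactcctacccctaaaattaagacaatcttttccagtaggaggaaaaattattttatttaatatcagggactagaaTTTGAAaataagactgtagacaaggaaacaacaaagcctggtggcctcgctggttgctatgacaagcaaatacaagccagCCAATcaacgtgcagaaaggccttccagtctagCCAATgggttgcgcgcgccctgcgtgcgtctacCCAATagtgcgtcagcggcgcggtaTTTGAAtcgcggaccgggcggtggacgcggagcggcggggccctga
Plk1: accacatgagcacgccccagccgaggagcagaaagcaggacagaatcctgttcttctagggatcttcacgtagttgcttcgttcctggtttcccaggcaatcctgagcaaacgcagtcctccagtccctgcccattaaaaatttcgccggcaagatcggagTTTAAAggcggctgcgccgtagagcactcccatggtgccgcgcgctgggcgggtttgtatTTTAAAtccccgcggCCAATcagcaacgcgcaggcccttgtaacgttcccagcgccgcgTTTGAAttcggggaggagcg
Cdc20: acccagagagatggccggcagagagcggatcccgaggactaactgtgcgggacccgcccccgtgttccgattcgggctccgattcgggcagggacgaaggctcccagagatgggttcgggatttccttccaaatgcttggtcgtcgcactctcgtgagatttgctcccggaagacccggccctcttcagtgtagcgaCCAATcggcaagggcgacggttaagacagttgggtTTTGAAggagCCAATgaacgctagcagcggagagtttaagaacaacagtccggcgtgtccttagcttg

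In *Cdk1* the 3 CCAAT matches began at -208, -80 and -48 and the 2 CHR matches at -71 and -15, counted from 0 at the first base of the gene. *Ccnb2* held 3 CCAAT matches at -87, -54 and -21, with a CHR match just past the start at 4 and another at -167. *Plk1* had 1 CCAAT match at -14, and CHR matches at -89, -29 and 30. In *Cdc20* a CHR match at -18 lay between CCAAT matches at -53 and -8. Windows were listed for 48 of the 58 genes, 53 windows in all because some genes have several starts, and they were set beside all 32851 windows of 27025 genes, the listed members included. CCAAT was found at least once in 75.5% of the member windows and 37.4% of all windows, and at least 2 times in 47.2% and 11.7%. TTTGAA was found in 69.8% against 17.9%, whereas TTTAAA was found in 18.9% against 13.2%. A CHR form beginning within 50 bases of the start was present in 66.0% of the member windows and 8.28% of all windows, and CCAAT together with a CHR form in 64.2% and 10.7%. A match is a description of letters and not of a bound site.

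**Figure D1:**
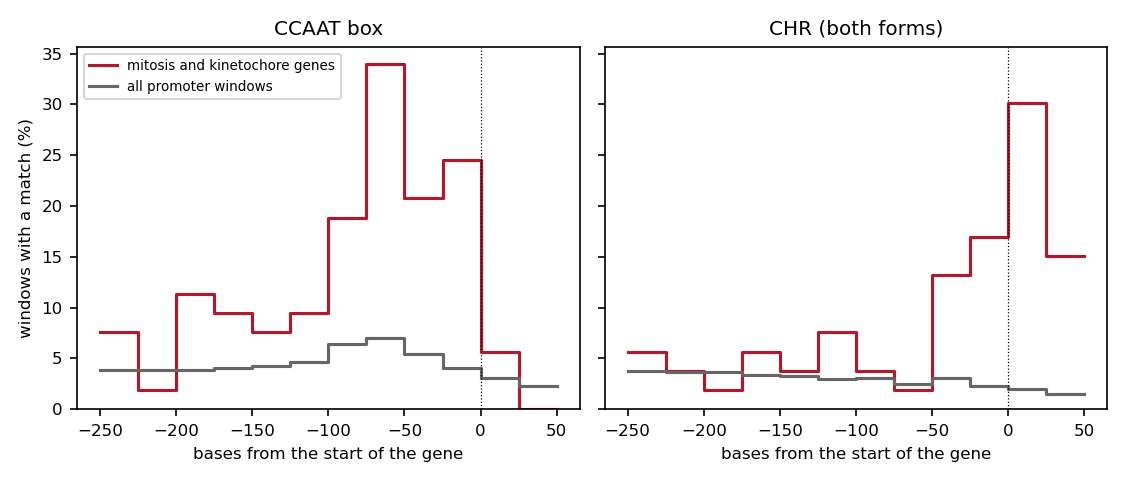
Share of promoter windows (percent) with a match that begins in each stretch of 25 bases, by distance from the gene start in bases, for CCAAT (left) and for the CHR forms TTTGAA and TTTAAA together (right). Red lines are the 53 windows of mitosis and kinetochore genes and grey lines all 32851 windows. CCAAT was most frequent at -75 to -51 (34.0% against 6.99%), and CHR matches at 0 to 24 (30.2% against 1.99%).

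*Tnrc6a* itself, the check on the labels, stood at 7.38, 7.13 and 7.18 in WT replicates 1, 2 and 3 and at 5.45, 5.04 and 5.4 in the null lungs, given here and below in the order of the replicates. It fell by 1.93 (SE 0.128), with an adjusted p of 0.00312 in limma, and was the only gene of the 19938 past the adjusted threshold of 0.05, which is 0.00502% of them, while 1081 genes had an unadjusted p under 0.05. Without WT replicate 3 its adjusted p was 0.0552 and no gene passed, with 667 at an unadjusted p under 0.05. Array medians over all probe sets ran from 4.98 to 5.03. The 12 markers of lung epithelium had a median signal of 9.3, with gene means from 5.46 to 11.75. Among them *Sftpc*, the surfactant protein of alveolar type II cells, lay between 11.64 and 11.82 in every lung. The 3 lungs of each genotype come from separate embryos, and their number limits the precision: an exact two-sided permutation test of 3 against 3 cannot give a p below 0.1.

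The mitotic genes differed widely between lungs of the same genotype. Averaged over the 57 genes, WT replicate 1 stood 0.24 above the mean of the 6 lungs, and WT replicates 2 and 3 stood at -0.27 and -0.31. Null replicates 1 and 3 were 0.14 and 0.35 above it, and null replicate 2 stood at -0.15. The genotypes overlapped: the WT mean was -0.11 ± 0.30 and the null mean 0.11 ± 0.25 (SD, n = 3). WT replicate 1 was the highest WT lung for 55 of the 57 genes (96.5%), against 22.5% of all genes, and the exceptions were *Cdc25b* and *Spc24*. Among null lungs, replicate 3 was the highest for 45 genes (78.9% against 32.2%) and replicate 2 the lowest for 49 (86.0% against 23.8%). For 45 of the 57 genes WT replicate 1, null replicate 1 and null replicate 3 all lay above the other 3 lungs, a split that cuts across genotype and was found for 5.27% of all genes. The median range over the 6 lungs was 0.77 for the mitotic genes and 0.42 for all genes.

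**Figure D2:**
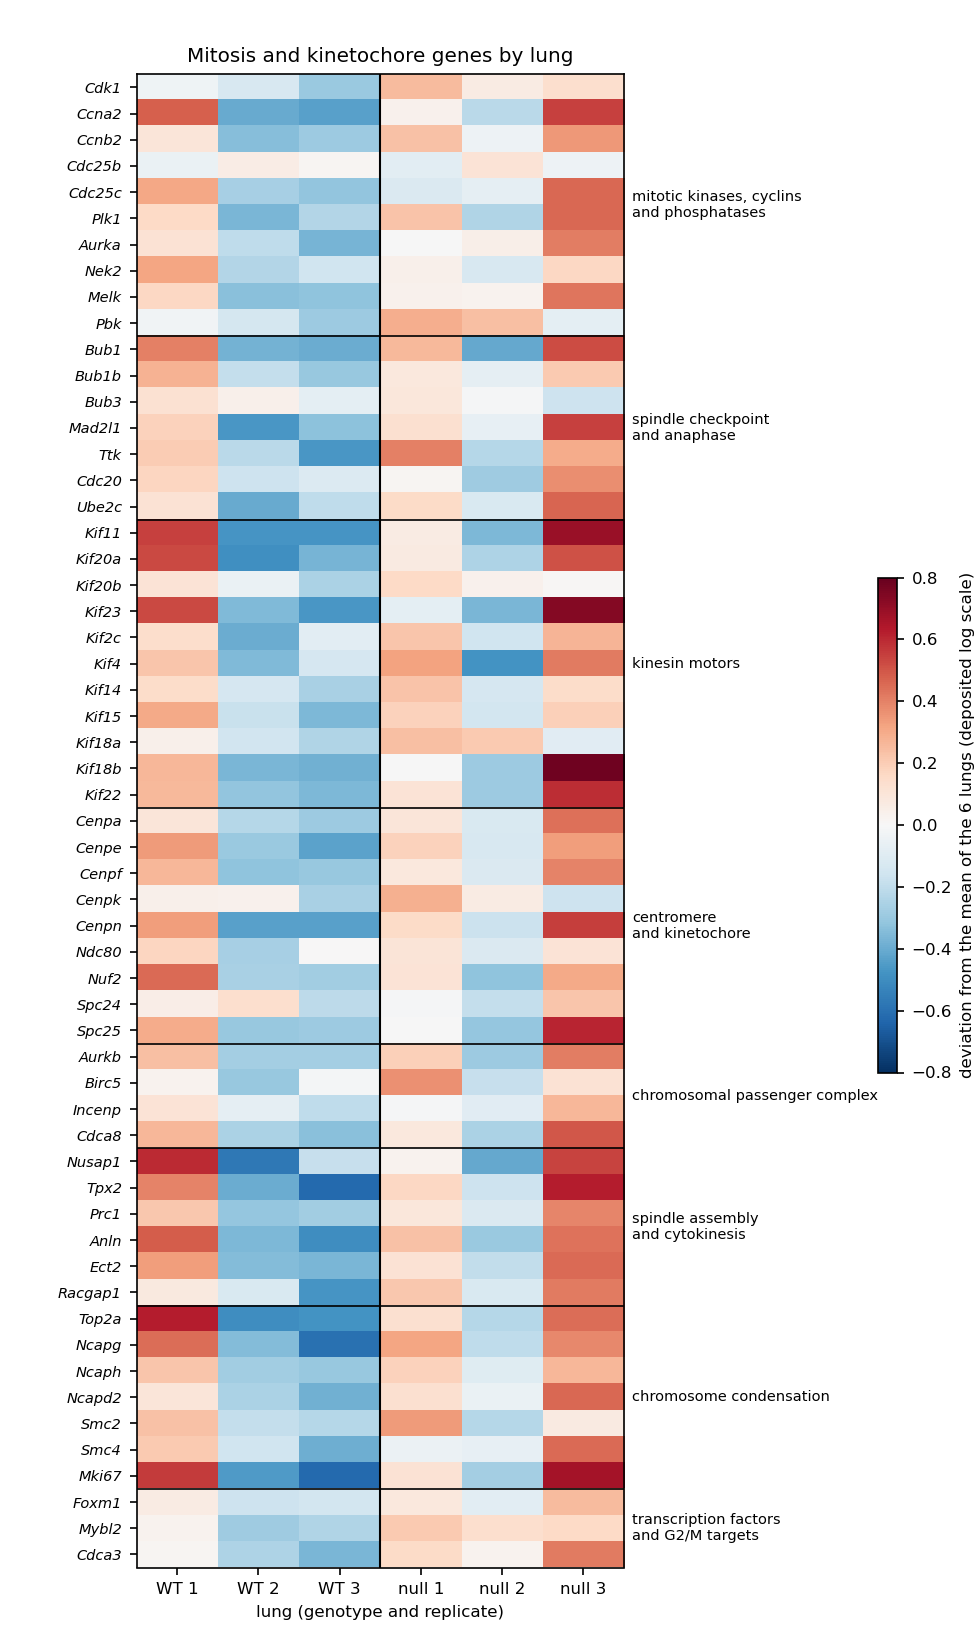
Deviation of each gene (rows, grouped by role) from its own mean over the 6 lungs (columns), on the deposited log scale, blue below the mean and red above it. The columns of WT replicate 1 and null replicate 3 are red for most genes and those of WT replicates 2 and 3 blue, and null replicate 2 is the lowest null lung for 49 of the 57 genes.

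Set between single lungs, the null samples were not alike. Null replicate 1 exceeded the mean of WT replicates 2 and 3 by a median of 0.45 and was above it for 56 of 57 genes, and null replicate 2 exceeded it by 0.16, for 47 genes. WT replicate 1 exceeded the same pair by 0.50, for 56 genes. Null replicate 3 was 0.13 above WT replicate 1, for 39 genes. Over all genes, the medians of the same contrasts were -0.03, -0.01, -0.11 and 0.05. The widest range over the 6 lungs was 1.29 in *Mki67*, and the narrowest was 0.19 in *Cdc25b*, followed by 0.29 in *Bub3*.

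Against this spread, the genotype difference of the 57 genes had a median of 0.24, from -0.06 to 0.42, where the median over all genes was 0.00. Dim genes tended to be higher in the null lungs and bright ones lower, and among the 12867 genes in the signal range of the list the median was -0.03. With all genes cut into 10 equal bands of signal, the list stood above the median of all genes in each band that held members, from 0.16 against 0.02 in the dimmest such band to 0.15 against -0.06 in the brightest. The share of genes higher on average in the null lungs was 96.5% for the list and 49.2% for all genes. These genes vary together from lung to lung, so they are not separate measurements of the genotype. None passed the adjusted threshold in limma, where the smallest adjusted p was 0.89. At an unadjusted p under 0.05, 5 of the 57 (8.77%) were higher, *Cdk1*, *Mybl2*, *Cdca3*, *Ccnb2* and *Pbk*, against 2.46% of all genes, and 0 were lower, against 2.96%. Every null lung exceeded every WT lung in 3 genes, *Cdk1*, *Mybl2* and *Cdca3* (5.26%), a share near the 4.67% of all genes, and no gene had every null lung below every WT lung, against 5.51%.

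**Figure D3:**
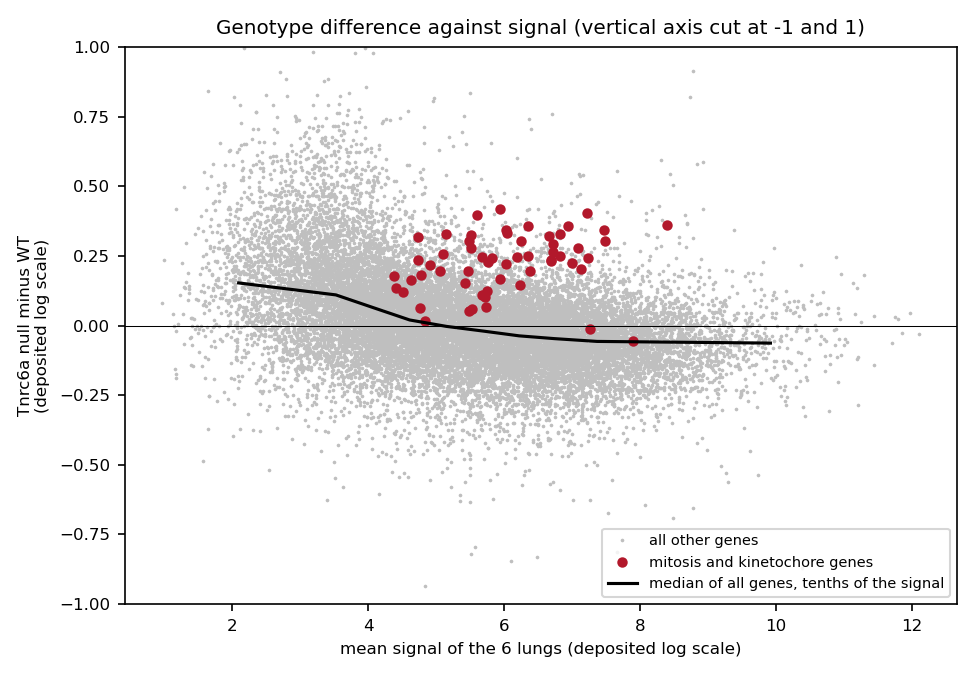
Genotype difference (*Tnrc6a* null minus WT, vertical axis, deposited log scale, shown from -1 to 1, so that genes beyond it such as *Tnrc6a* at -1.93 are not drawn) against the mean signal of the 6 lungs (horizontal axis). Grey points are all other genes, red points the 57 mitosis and kinetochore genes, and the black line joins the medians of all genes in 10 bands of signal. The red points lie between -0.06 and 0.42, mostly above the line.

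How large the difference came out depended on which lung was left out. Leaving out WT replicate 1 gave a median of 0.42, WT replicate 2 gave 0.14 and WT replicate 3 gave 0.12, whereas null replicate 2 gave 0.39 and null replicate 3 gave 0.10. The count at an unadjusted p under 0.05 was 29 without WT replicate 1 (against 2.24% of all genes) and 13 without null replicate 2 (against 1.97%). It was 1, 1, 3 and 4 when WT replicate 2, WT replicate 3, null replicate 1 or null replicate 3 was left out, against 1.98%, 1.96%, 1.6% and 5.91% of all genes, so that with either low WT lung out the count was near the background. Genes with every null lung above every WT lung numbered 35 of 57 without WT replicate 1, against 8.45% of all genes, 13 without null replicate 2, against 8.04%, and 6 without null replicate 3, against 13.9%. They numbered 3 (5.26%) when WT replicate 2, WT replicate 3 or null replicate 1 was left out, below the 8.69%, 10.2% and 8.9% of all genes. With both WT replicate 1 and null replicate 3 left out the median was 0.29 and 29 genes had an unadjusted p under 0.05, against 5.78% of all genes. No mitotic gene passed the adjusted threshold in any of these fits, in which the smallest adjusted p was 0.113.

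Kinases, cyclins and phosphatases of mitotic entry were higher on average in null lungs for 9 of 10 genes, with a median difference of 0.30. *Cdk1*, the catalytic subunit that starts mitosis, stood at 7.44, 7.35 and 7.18 in WT and at 7.73, 7.54 and 7.61 in null lungs. All 3 null lungs lay above all 3 WT lungs, by a difference of means of 0.30 (SE 0.093), whose p in limma was 0.0106 before and 0.89 after adjustment. This difference stayed between 0.23 and 0.36 when each lung was left out in turn. *Ccnb2*, a cyclin B partner of *Cdk1*, stood at 8.49, 8.05 and 8.1 in WT and at 8.63, 8.35 and 8.74 in null lungs. Only WT replicate 1 reached into the null range, and the difference was 0.36 (SE 0.139, adjusted p in limma 0.89). *Pbk*, a mitotic serine/threonine kinase, departed from the common order of lungs, with 5.45, 5.34 and 5.19 in WT and 5.77, 5.72 and 5.4 in null lungs, where replicate 3 was the lowest null lung. *Aurka*, the kinase of spindle poles, and *Plk1*, a kinase of mitotic entry and the spindle, differed by 0.30 (SE 0.152) and 0.29 (SE 0.19), with genotypes that overlapped. *Cdc25b*, a phosphatase that activates CDK1 in G2, was level across the lungs at 7.21, 7.32 and 7.28 in WT and 7.18, 7.37 and 7.22 in null lungs, and lacked the pattern of its neighbours.

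The spindle checkpoint and anaphase genes had a median difference of 0.25, with 6 of 7 higher on average. *Mad2l1*, which holds CDC20 in the inhibitory checkpoint complex, stood at 7.4, 6.75 and 6.89 in WT and at 7.34, 7.15 and 7.76 in null lungs, a difference of 0.40 (SE 0.194). *Ube2c*, the ubiquitin-conjugating enzyme of the anaphase-promoting complex, and *Ttk*, the checkpoint kinase MPS1, differed by 0.33 (SE 0.171) and 0.32 (SE 0.212). *Bub1*, a kinase of the outer kinetochore, ran from 5.95 to 6.75 in WT and from 5.94 to 6.87 in null lungs, nearly the same range. *Cdc20*, the activator of the anaphase-promoting complex, differed by 0.07 (SE 0.17), and by -0.10 without null replicate 3. *Bub3*, a checkpoint scaffold protein, was the lowest of the list at -0.06 (SE 0.093), with all lungs between 7.73 and 8.02. *Bub3* and *Cdc25b* were thus the 2 genes of the list with the smallest spread over the lungs and the 2 that were not higher on average in null lungs.

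All 11 kinesin motors were higher on average, by 0.13 to 0.32 and a median of 0.22. *Kif18a*, which limits the swing of chromosomes at metaphase, stood at 4.77, 4.58 and 4.49 in WT and at 4.97, 4.94 and 4.64 in null lungs, so that null replicate 3 was again the low one. *Kif18b*, a microtubule-destabilising kinesin, showed the more usual order, at 6.92, 6.29 and 6.27 in WT and 6.65, 6.36 and 7.43 in null lungs, and only null replicate 3 lay above WT replicate 1, with a difference of 0.32 (SE 0.271). *Kif2c*, the centromeric microtubule depolymerase, differed by 0.23 (SE 0.163), and *Kif20b*, a kinesin of cytokinesis, by 0.13 (SE 0.131). *Kif4*, a chromokinesin, ran from 4.03 to 4.61 in WT and from 3.91 to 4.8 in null lungs, and the null range held the whole WT range.

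Centromere and kinetochore genes were higher on average for 9 of 9, with a median difference of 0.20. *Cenpa*, the histone H3 variant that marks the centromere, stood at 7.18, 6.85 and 6.79 in WT and at 7.18, 6.96 and 7.52 in null lungs, a difference of 0.28 (SE 0.155). *Cenpn*, which binds CENP-A nucleosomes, differed by 0.36 (SE 0.238), and *Cenpf*, an outer kinetochore protein, by 0.24 (SE 0.185). In both, WT replicate 1 lay above null replicates 1 and 2. In the NDC80 complex that grips microtubules, *Ndc80* ran from 4.49 to 4.93 in WT and from 4.64 to 4.87 in null lungs, a difference of 0.06 (SE 0.141), and *Spc24*, which anchors the complex to the centromere side, differed by 0.02 (SE 0.145) and stood at -0.02 once the arrays were centred on their medians. The remaining subunits *Nuf2* and *Spc25* differed by 0.06 (SE 0.223) and 0.20 (SE 0.246). *Cenpk*, of the inner centromere network, differed by 0.12 (SE 0.152), and null replicate 3, at 4.35, was its lowest null lung.

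The chromosomal passenger complex, which corrects faulty attachments and later works at the midzone, had all 4 subunits higher on average, by a median of 0.20. Its kinase *Aurkb* stood at 7.37, 6.86 and 6.86 in WT and at 7.32, 6.84 and 7.54 in null lungs, so each genotype held lungs at the low and the high end. The differences were 0.20 (SE 0.195) for *Aurkb*, 0.20 (SE 0.156) for the survivin gene *Birc5*, 0.22 (SE 0.217) for the borealin gene *Cdca8* and 0.11 (SE 0.128) for the scaffold *Incenp*.

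Genes of spindle assembly and cytokinesis had the widest spread among WT lungs of the 8 role groups, a median range of 0.84, and a median difference of 0.25, with 6 of 6 higher on average. *Tpx2*, the activator of Aurora A on spindle microtubules, had the largest difference of the list at 0.42, but with an SE of 0.273. Its values were 6.34, 5.55 and 5.32 in WT and 6.11, 5.78 and 6.57 in null lungs, and WT replicate 1 exceeded null replicates 1 and 2. *Racgap1*, the GTPase-activating subunit of centralspindlin, differed by 0.34 (SE 0.173), and *Prc1*, which bundles midzone microtubules, by 0.25 (SE 0.174). *Nusap1*, a microtubule-bundling protein of the spindle, ran from 5.15 to 6.32 in WT and from 5.31 to 6.26 in null lungs, and its difference was 0.10 (SE 0.31).

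Chromosome condensation genes were higher on average for 7 of 7, by a median of 0.24. The condensin I subunit *Ncapd2* stood at 7.03, 6.68 and 6.55 in WT and at 7.06, 6.88 and 7.39 in null lungs, a difference of 0.36 (SE 0.158). Here WT replicate 1 lay above 1 null lung. The other condensin I subunits *Ncapg* and *Ncaph* differed by 0.33 (SE 0.264) and 0.24 (SE 0.156), and *Smc2*, the ATPase of both condensins, by 0.12 (SE 0.172). *Top2a*, the topoisomerase that untangles sister chromatids, stood at 7.32, 6.19 and 6.21 in WT and at 6.82, 6.46 and 7.14 in null lungs, and WT replicate 1 was the highest of the 6. *Mki67*, the Ki-67 protein of the mitotic chromosome surface and the usual marker of dividing cells, stood at 8.02, 7.01 and 6.84 in WT and at 7.58, 7.19 and 8.13 in null lungs. Its difference of 0.34 (SE 0.319) was small beside its WT range of 1.18. *Top2a* and *Kif14* had a second, dim probe set with means of 1.61 and 2.86, at which the differences were -0.15 and -0.07.

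The transcription factors that drive the G2 and mitosis genes, with their target *Cdca3*, had a median difference of 0.33 over 3 genes and narrow WT ranges, with a median of 0.31. *Mybl2* (B-MYB) stood at 6.07, 5.76 and 5.8 in WT and at 6.25, 6.18 and 6.2 in null lungs. The null lungs lay within 0.07 of each other, all above WT, and the difference was 0.33 (SE 0.104) with a p in limma of 0.0115 before and 0.89 after adjustment. Leaving out each lung in turn gave 0.28 to 0.43. *Cdca3*, an adaptor for the destruction of the mitotic inhibitor WEE1, stood at 5.62, 5.36 and 5.24 in WT and at 5.76, 5.63 and 6.02 in null lungs. Null replicate 2 lay just above WT replicate 1, and the 2 genotypes overlapped after quantile normalization or centring. The difference was 0.40 (SE 0.138), with 0.29 to 0.50 when each lung was left out. *Foxm1*, the forkhead activator of this programme, ran from 5.77 to 6.0 in WT and from 5.85 to 6.19 in null lungs, a difference of 0.17 (SE 0.116).

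**Figure D4:**
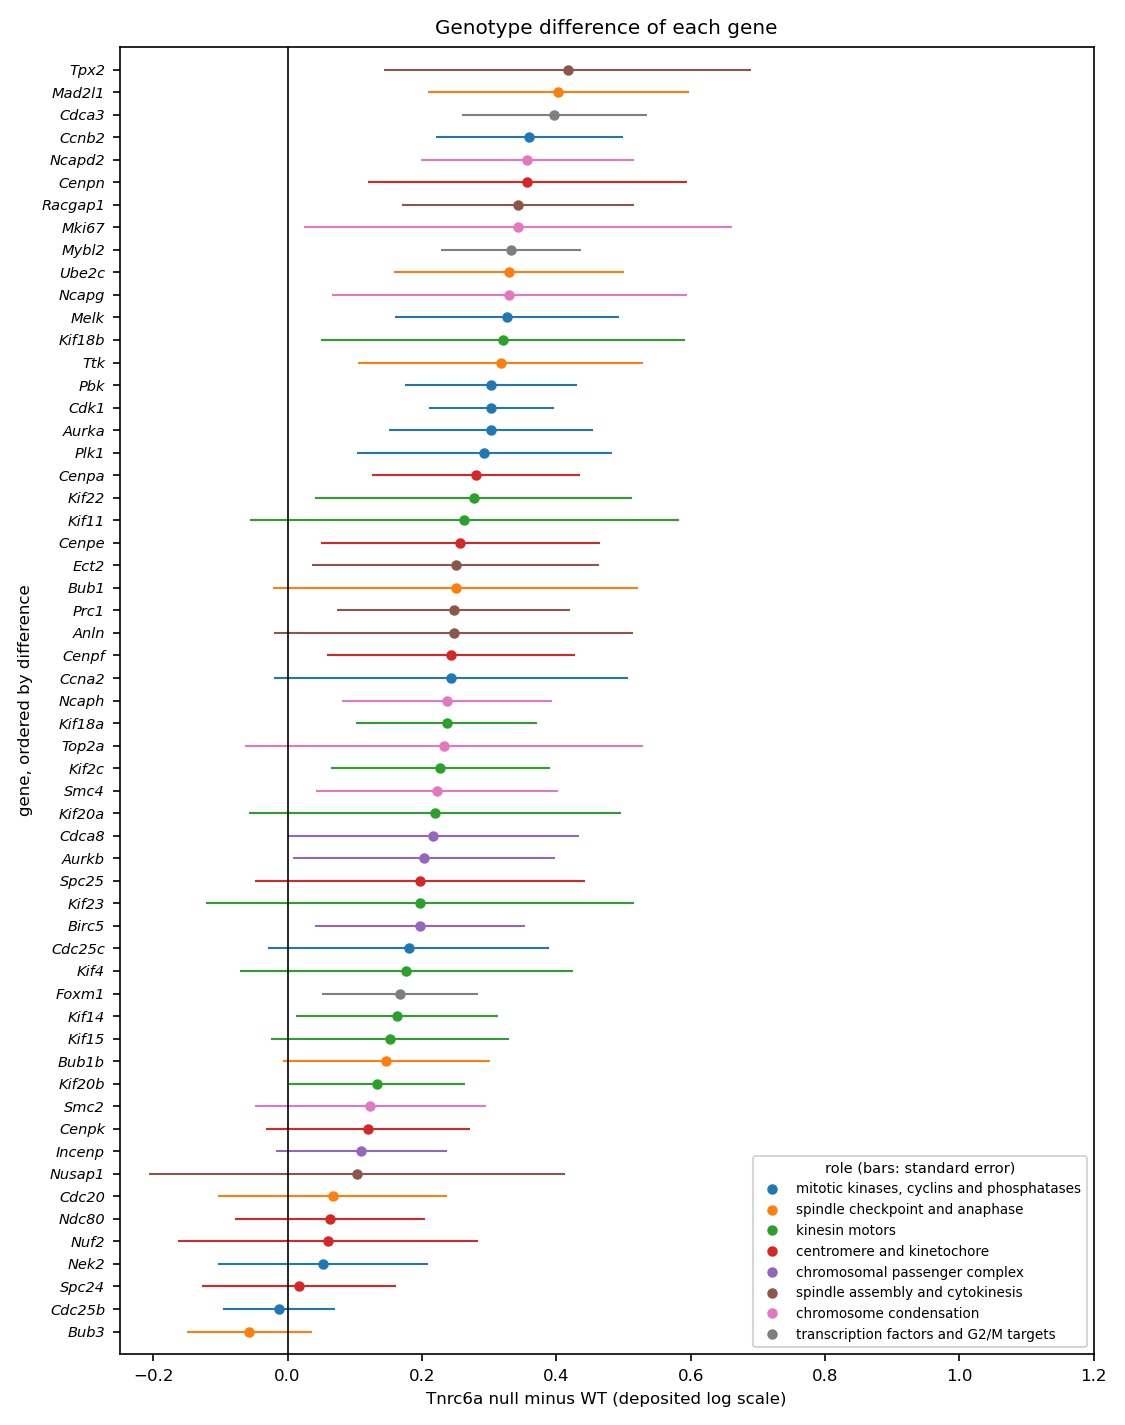
Difference of each of the 57 genes (*Tnrc6a* null minus WT, horizontal axis, deposited log scale), ordered by size and coloured by role. Bars are the standard error from limma over the 6 lungs. The points run from -0.06 in *Bub3* to 0.42 in *Tpx2*, and 33 of the 57 differences (57.9%) were larger than their standard error, against 37.2% of all genes.

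Other mitotic genes showed the same ordering of lungs with smaller differences. Of 87 measured genes of the anaphase-promoting complex, the inner and outer kinetochore, cohesin and the spindle outside the list, 64 were higher and 22 lower on average, with a median of 0.10, and 6 higher and 0 lower at an unadjusted p under 0.05, against the 2.46% and 2.96% of all genes given above. *Cks1b*, a small subunit that docks CDKs to their substrates, stood at 7.17, 7.07 and 7.16 in WT and 7.55, 7.2 and 7.96 in null lungs, and *Anapc15*, of the anaphase-promoting complex, at 5.89, 5.83 and 5.65 against 6.11, 6.0 and 6.34. In both, every null lung was above every WT lung, which held for 5 of the 87 genes, against 4.67% of all genes. The reverse held for 1 of the 87, against 5.51%. *Cdca5* (sororin) and *Cenpm* differed by 0.35 (SE 0.134) and 0.36 (SE 0.136). The median of the 87 genes became 0.19 or 0.18 once WT replicate 1 or null replicate 2 was dropped. It became 0.03 once WT replicate 3 or null replicate 3 was dropped.

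Genes of DNA replication and S phase, the step before mitosis, were higher on average for 39 of 42, with a median of 0.16. At an unadjusted p under 0.05, 3 were higher and 1 lower, against 2.46% and 2.96% of all genes. The mean deviations were 0.00, -0.11 and -0.12 in WT and 0.13, -0.05 and 0.15 in null lungs. WT replicate 1 was again the highest WT lung and lay above null replicate 2, by smaller margins than in the mitotic genes. *Lig1*, the replicative DNA ligase, stood at 6.25, 6.28 and 6.15 in WT and 6.61, 6.35 and 6.49 in null lungs, and *Dut*, which keeps uracil out of DNA, at 5.89, 5.95 and 5.77 against 6.1, 6.08 and 6.14. The origin recognition gene *Orc1* differed by 0.34 (SE 0.142), and the activator *E2f2* by -0.23 (SE 0.101). The G1 cyclins and kinases did not share this pattern, with 3 of 6 higher and a median of -0.005. *Ccnd2*, a D-type cyclin, was the 1 of them lower at an unadjusted p under 0.05, as were 2.96% of all genes. It stood at 8.36, 8.27 and 8.3 in null lungs against 8.5, 8.46 and 8.54 in WT. *Cdk2* differed by 0.15 (SE 0.077), *Cdk6* by -0.14 (SE 0.087) and *Ccnd1* by 0.03 (SE 0.097). Among 20 inhibitors and repressors of the cycle, 9 were higher and 11 lower, with a median of -0.02. Against 2.46% and 2.96% of all genes, 1 was higher and 2 lower at an unadjusted p under 0.05. These were the DREAM subunit *Lin37*, at 0.27 (SE 0.087), and the CDK inhibitors *Cdkn2b*, at -0.27 (SE 0.09), and *Cdkn1c*, at -0.22 (SE 0.078), while *E2f4*, the repressor E2F of DREAM, stood at -0.12 (SE 0.079). None of the genes in these 4 lists passed the adjusted threshold.

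**Figure D5:**
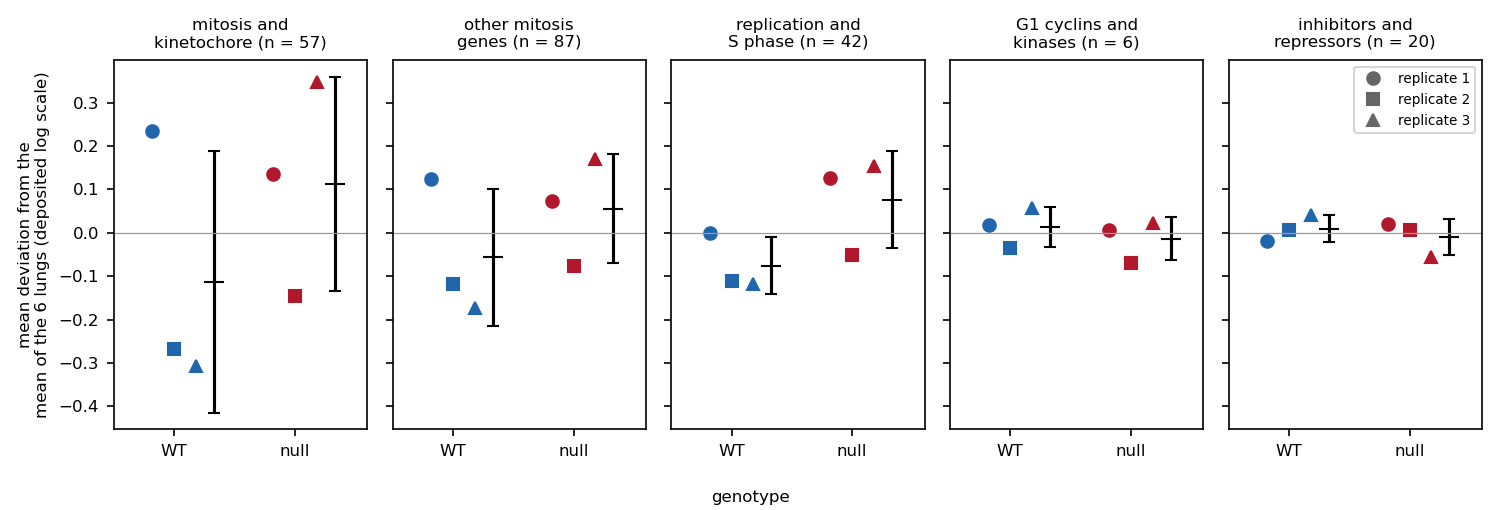
Mean deviation of 5 gene lists from the mean of the 6 lungs (vertical axis, deposited log scale), with 1 point per lung (WT blue, *Tnrc6a* null red, symbols for the replicate) and black bars for each genotype's mean ± SD (n = 3). The mitosis and kinetochore genes spread from -0.31 to 0.35 and overlap between genotypes, and the G1 and inhibitor lists stay within 0.07 of 0.

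Several measures of the tissue moved with the same lungs as the mitotic genes, and their part in the result was not tested. WT replicate 1 and null replicate 3, the lungs highest for mitotic genes, were the lowest of their genotype for 6 of the 11 marker lists. The same lungs were also the lowest of their genotype in the mean over all 19938 genes. That mean was 5.38, 5.48 and 5.49 in WT and 5.48, 5.49 and 5.42 in null lungs. The mean signal of 7 macrophage markers was 5.86, 6.25 and 6.32 in WT and 6.09, 6.0 and 5.59 in null lungs, with 7 of 7 lower on average in null lungs. For 4 megakaryocyte markers it was 5.82, 6.37 and 6.41 against 6.34, 6.32 and 5.95, and for 5 mesothelial markers 6.78, 7.09 and 7.17 against 7.05, 7.11 and 6.62. In 9 neutrophil markers it was 4.09, 4.53 and 4.73 against 4.54, 4.54 and 4.32. For 8 cardiac muscle markers it was 6.85, 6.92 and 7.05 against 7.13, 6.74 and 6.49, with 7 of 8 lower on average in null lungs. The 12 lung epithelium markers, the sixth such list, varied little, at 9.02, 9.06 and 9.08 against 8.99, 9.06 and 8.97. The 5 liver genes, 5 of them higher on average in null lungs, stood at 4.31, 4.51 and 4.88 in WT and at 4.25, 4.64 and 5.63 in null lungs, with *Alb* at 7.61 in null replicate 3 and from 4.78 to 6.26 in the other lungs. The median of the probe sets that carry no gene symbol was 4.28, 4.16 and 4.14 in WT and 4.25, 4.23 and 4.3 in null lungs, which is the same order of lungs as the mean of the mitotic genes. Mesenchyme and endothelium markers (9 genes) instead split by genotype. Their mean lay from 9.09 to 9.11 in WT and from 8.95 to 9.01 in null lungs, with 8 of 9 lower on average. These markers were bright, with gene means from 7.92 to 10.11, and bright genes tended to be lower in null lungs. Their median difference was -0.15, against -0.06 for all genes in the brightest of the 10 bands of signal. Every null lung was below every WT lung in 4 of the 9, against 5.51% of all genes. At an unadjusted p in limma under 0.05, 3 were lower, against 2.96% of all genes, and none passed the adjusted threshold. Erythroid markers ranged from 4.62 to 5.01 over the 6 lungs, thymocyte markers from 3.89 to 4.08 and skeletal muscle markers from 4.39 to 4.69. The lowest value on any array was 0.29, so no marker was at 0, and no detection calls were used here.

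Genes with and without a CHR form near the start had close medians, a comparison that was not tested. In 32 measured genes with a CHR form within 50 bases of a listed start, the median difference was 0.25 and the median range over the lungs 0.80. In the 15 whose windows had none there, these were 0.24 and 0.67, and in the 10 without a listed window 0.21 and 0.74. *Bub3*, which did not follow the common order of lungs, had CCAAT at -74 and -32 and TTTGAA at -43 in 1 of its windows, and *Cdc25b* had CCAAT at -28 and no CHR form.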

How the data were processed

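Whole lungs of 3 WT and 3 *Tnrc6a* null embryos were compared, grouped by the sample labels. The authors deposited 1 value for each of 35045 probe sets and lung, called log2 in the labels, and these were used unchanged. The submitters' processing notes name MAS5, with a version and settings not given in the sources used here. Of the probe sets, 21789 carried 1 gene symbol, 1621 several and 11635 none, and 21698 were brought to current symbols by Entrez ID (RefSeq, GRCm38.p6). The brightest probe set stood for each gene (999 genes and 2 of the list had several). All 19938 genes entered 1 fit of limma 3.58.1 (R 4.3.3, eBayes trended on the signal), and p-values were adjusted by Benjamini-Hochberg (threshold 0.05). The procedure was tested on simulated data. Tables, promoter counts and plots came from Python 3.11.15, pandas 2.3.3 and matplotlib 3.10.9.

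The 58 genes, their 8 role groups, 4 other cell cycle lists, 11 marker lists and the fit without WT replicate 1 and null replicate 3 were chosen with earlier results of these data known. No list was therefore tested. Named were set regulators, up to 3 genes with the smallest p and the lowest difference in each role, the 3 brightest and 3 dimmest members, members without overlap between genotypes, and up to 4 genes with the smallest p in each other list. *Kif14*, *Alb*, *Nuf2*, *Spc25* and the genes singled out by their range were chosen after their values were seen. Alternatives numbered 16 and changed the scaling (quantile or centred arrays), the dim genes kept, the probe sets averaged, the variance model (untrended or robust), the array weights, the replicate block, the test (the methods' t-test) and the lungs included.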

Additional observations from a re-analysis of the deposited data

How the results depend on the processing

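The median difference of the mitosis and kinetochore genes, 0.24 as reported, was above 0 in every alternative. It ran from 0.10 to 0.42 when a lung was left out. It was 0.20 when arrays were centred, which moved the median of all genes to -0.04. The SD between lungs, 0.276, was larger than the median itself. Changing the variance model, the test or the replicate block could not move this median. The median of the other mitotic genes lay between 0.03 and 0.19. No member passed the adjusted threshold in any alternative. The 5 members at an unadjusted p under 0.05 became 3 without a trend (3.05% of all genes, 2.46% as reported), 14 with array weights (5.21% of all genes, with weights of 0.425 and 0.424 for WT replicate 1 and null replicate 3 and 1.07 to 2.25 for the others), 2 with the methods' t-test (2.39%), 1 to 29 with a lung left out (1.6% to 5.91%), and 29 without both WT replicate 1 and null replicate 3 (5.78%). Members with every null lung above every WT lung, 3 in the values as deposited (4.67% of all genes), were 3 to 35 with a lung left out (8.04% to 13.9%) and 36 without both lungs (18.2%). All genes past the adjusted threshold numbered 2 with array weights, 0 with the methods' t-test (1102 at an unadjusted p under 0.05, and an adjusted p for *Tnrc6a* of 0.551), 0 to 1 with a lung left out and 23 without both lungs. The cause of these changes was not tested.

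Small differences changed sign. *Cdc25b* was at 0.033 after quantile normalization and from -0.07 to 0.025 with a lung left out. *Spc24* was at -0.024 after quantile normalization, -0.02 after centring, -0.074 with array weights, -0.06 without both lungs and from -0.09 to 0.115 with a lung left out. *Ccnd1* was at -0.007 after centring, -0.014 with array weights, -0.05 without both lungs and from -0.02 to 0.105 with a lung left out, and *Bub3* at 0.06 without both lungs and from -0.117 to 0.013. With a lung left out, *Ndc80* ran from -0.055 to 0.165, *Nusap1* from -0.157 to 0.428, *Smc2* from -0.017 to 0.27 and *Cdc20* from -0.103 to 0.227.

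The labels do not say whether lungs of the same replicate number belong together. Deviations from the group means correlated at -0.295, 0.361 and -0.162 between lungs of the same number, and at 0.538 between WT replicate 1 and null replicate 3. With 3 lungs a genotype, these correlations cannot settle whether the lungs were paired. With the replicate number as a block, which cannot change the median of 0.237, 5 members were higher at an unadjusted p under 0.05. In that fit 1 gene passed the adjusted threshold. Signal over background was not measured, since no scanner values were used here.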
